A study of Mus musculus with 6 samples.

Results

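The oogenesin genes Oog1, Oog2, Oog3 and Oog4 were followed in 6 mouse oocyte libraries, of which 3 came from oocytes matured in vitro with metformin and 3 from oocytes matured without it. The members were taken by name. Each of the 55487 Ensembl identifiers in the deposited count table was matched to a mouse symbol in GENCODE M21, and the 4 identifiers that carry an oogenesin symbol were kept. All 4 were detected in every library, and all 4 passed the filter on low counts.

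The labels describe both groups by the same protocol apart from the drug. Mice were primed with 10 IU of PMSG, a gonadotropin that drives follicle growth, and fully grown oocytes were collected 46 to 48 h later. The surrounding cumulus cells were stripped off by pipetting, and the naked oocytes were cultured for 16 h in M16 medium to metaphase II. The metformin group had metformin in that medium, and the control group had none. Metformin is a biguanide used against type 2 diabetes. The protocol lists 10, 20 and 50 μM and does not say which of these the sequenced oocytes received. The series title speaks of aged mice, and the sample labels give neither age nor strain, neither the number of oocytes in a library nor whether the 3 replicates came from separate animals. What the p-values set the difference against is then the spread between libraries, which may be technical.

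Oogenesins are leucine-rich repeat proteins of the PRAME family, which has expanded into a large gene cluster in the mouse. Oog1 is made in germ cells of the ovary and persists as maternal protein into the early embryo, where it has been reported to bind Ras and the Ral exchange factor Ralgds. Human PRAME, for which the family is named, serves as a substrate receptor of a CUL2 ubiquitin ligase. A fully grown oocyte is nearly silent in transcription, so that messages measured at metaphase II are mostly ones stored earlier.

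The 4 genes lie in 2 places. In GENCODE M21, on the GRCm38 build, Oog1 occupied chr12:87602688-87608850 on the plus strand. The other 3 lay on chromosome 4. Oog2 occupied chr4:144190719-144196934 on the plus strand, and Oog3 occupied chr4:144157557-144162663 on the minus strand. These neighbours point away from each other and are separated by 28055 bases. Oog4 occupied chr4:143437164-143450324 on the minus strand, 707 kb before Oog3. Translation of the annotated coding sequences gave proteins of 496 residues for Oog1, 476 for Oog2, 500 for Oog3 and 502 for Oog4. Pairwise identity by blastp was highest between Oog1 and Oog3, at 66.9%, and lowest between Oog2 and Oog4, at 54.6%.

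The promoters are shown because the members resemble each other there although they sit on different chromosomes and differ widely in level. Each is the RefSeq sequence on GRCm38.p6 from 250 bases before to 50 bases after the RefSeq transcript start, read 5′ to 3′ on the strand of the gene. The regions are chr12:87602415-87602714 (plus) for Oog1, chr4:144190467-144190766 (plus) for Oog2, chr4:144162602-144162901 (minus) for Oog3 and chr4:143450275-143450574 (minus) for Oog4. Capitals mark every run of 9 or more bases that all 4 promoters hold.
Oog1: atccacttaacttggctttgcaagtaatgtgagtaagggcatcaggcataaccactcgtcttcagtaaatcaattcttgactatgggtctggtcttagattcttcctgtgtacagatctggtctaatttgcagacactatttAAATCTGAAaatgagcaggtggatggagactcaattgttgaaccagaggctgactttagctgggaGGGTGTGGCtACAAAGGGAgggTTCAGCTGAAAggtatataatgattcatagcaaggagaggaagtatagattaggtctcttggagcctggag
Oog2: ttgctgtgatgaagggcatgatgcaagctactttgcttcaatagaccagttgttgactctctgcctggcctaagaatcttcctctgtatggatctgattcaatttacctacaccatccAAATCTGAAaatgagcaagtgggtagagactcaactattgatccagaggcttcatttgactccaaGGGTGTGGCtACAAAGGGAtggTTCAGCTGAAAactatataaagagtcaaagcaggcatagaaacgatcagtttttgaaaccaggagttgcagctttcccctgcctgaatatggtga
Oog3: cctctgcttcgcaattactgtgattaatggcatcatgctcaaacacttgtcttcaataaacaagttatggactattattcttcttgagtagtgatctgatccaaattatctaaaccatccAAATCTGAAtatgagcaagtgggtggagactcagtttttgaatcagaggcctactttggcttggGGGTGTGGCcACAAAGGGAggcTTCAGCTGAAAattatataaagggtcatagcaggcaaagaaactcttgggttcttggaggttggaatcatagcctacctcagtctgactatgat
Oog4: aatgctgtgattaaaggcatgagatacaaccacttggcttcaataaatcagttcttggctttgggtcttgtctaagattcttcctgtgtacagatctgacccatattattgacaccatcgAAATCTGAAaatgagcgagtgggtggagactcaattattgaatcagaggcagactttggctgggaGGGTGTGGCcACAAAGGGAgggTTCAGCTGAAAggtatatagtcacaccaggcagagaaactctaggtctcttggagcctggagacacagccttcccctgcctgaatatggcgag

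The 4 promoters shared 4 such runs, in the same order in each. AAATCTGAA came first, followed by GGGTGTGGC, ACAAAGGGA and TTCAGCTGAAA, the longest. Promoter identity between pairs of members ran from 75.2% to 83.6%. The longest run began 45 bases before the start in Oog2, 44 before it in Oog3 and 43 before it in Oog4. In Oog1 it began 21 bases before the RefSeq start, which itself lies 23 bases upstream of the GENCODE start. In Oog3 the RefSeq start lies downstream of the GENCODE start instead, so these distances depend on the annotation. Of 27025 RefSeq promoters of this length, 16 held TTCAGCTGAAA on either strand, or 0.0592%. These 16 were the 4 Oog promoters, 4 promoters of closely related genes described below and 8 of other genes. The other runs were more common, at 119 promoters (0.440%) for AAATCTGAA, 378 (1.40%) for GGGTGTGGC and 133 (0.492%) for ACAAAGGGA. All of these runs were picked because the 4 Oog promoters hold them, so those 4 are part of each count by construction. The shares are therefore descriptions and no test.

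The middle of the longest run, CAGCTG, is 1 form of the E-box CANNTG, the kind of element that the oocyte factor FIGLA binds. CAGCTG occurred once in each Oog promoter, against 16.1% of all promoters that hold it. Since CAGCTG lies inside a run picked for being in all 4, its presence there was fixed by that choice. CANNTG in any form, CAGCTG included, occurred 3 times in the promoters of Oog1 and Oog3, 4 times in that of Oog2 and 2 times in that of Oog4, and 72.1% of all promoters hold at least 1. The letters TATATA, as found in TATA boxes, followed the longest run in every Oog promoter and was present in 5.94% of all promoters. It began 8 bases before the RefSeq start in Oog1, and 32, 31 and 30 bases before it in Oog2, Oog3 and Oog4. TAATTG, the core bound by the oocyte homeobox factor NOBOX, occurred once each in Oog3 and Oog4 and not in the windows of Oog1 and Oog2, with 8.15% of all promoters holding it. All searches covered both strands, and a match is only a match of letters.

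**Figure D1:**
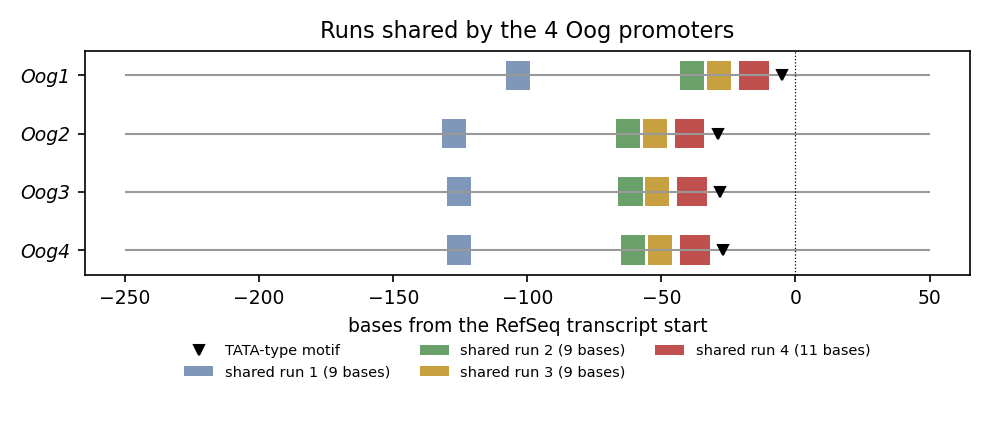
Positions of the shared runs in the promoters of Oog1 to Oog4, in bases from the RefSeq transcript start. Coloured boxes are the 4 runs found in all members, 3 of 9 bases and 1 of 11 bases, and triangles are TATATA matches. Spacing is nearly the same in Oog2, Oog3 and Oog4, and the whole set lies closer to the RefSeq start in Oog1.

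Oogenesin messages took up under 1% of each library, most of it from 1 gene. The 4 genes together held 0.681 to 0.769% of the counted reads in metformin libraries and 0.636 to 0.828% in control libraries. Oog3 supplied 88.3 to 89.0% of these reads in metformin libraries and 87.5 to 89.2% in control libraries. The libraries were of similar depth, from 9914600 to 10588292 counted reads with metformin and from 8622281 to 10113655 in controls.

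Levels of different genes were compared per length, in the FPKM values that the authors deposited (fragments per kilobase, scaled to library depth). Oog3 had 3225, 3644 and 3484 FPKM in metformin libraries 1, 2 and 3, against 2985, 3543 and 3961 FPKM in control libraries 1, 2 and 3. The lowest and the highest value both fell among controls, and the groups overlapped. By mean FPKM, Oog3 ranked 11 among the 26025 genes with reads. On counts per kilobase of the longest annotated transcript it ranked 23, with 3451 ± 212 in metformin libraries and 3496 ± 490 in controls (SD, n = 3 each). On that scale Gdf9, a growth factor that the oocyte secretes to its follicle cells, stood at 4013 ± 437 with metformin and 4022 ± 212 in controls. Zp3, a sperm-binding protein of the egg coat, stood at 545 ± 146 with metformin and 583 ± 102 in controls. Both were picked after their values were seen. In fold terms, Mos, Btg4 and Dppa3 lay nearer to Oog3 than Zp3 did, and Nlrp5 lay further from it. Mos stood at 976 ± 66.2 with metformin and 1038 ± 49.9 in controls, and Btg4 at 7173 ± 1701 with metformin and 6892 ± 398 in controls. Dppa3, a maternal factor, stood at 10223 ± 2043 with metformin and 8662 ± 640 in controls, and Nlrp5, of the subcortical maternal complex, at 125 ± 34.6 with metformin and 139 ± 35.3 in controls.

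Oog1 had 105, 125 and 117 FPKM in metformin libraries, against 107, 118 and 129 FPKM in control libraries. Replicate 1 was the lowest of each group, and the ranges overlapped over most of their width. Oog2 had 85.0, 84.9 and 70.1 FPKM in metformin libraries, against 81.4, 85.7 and 79.6 FPKM in control libraries. A single metformin library, replicate 3, lay below the other 5. Oog4 had 9.52, 7.69 and 6.48 FPKM in metformin libraries, against 8.49, 9.15 and 7.50 FPKM in control libraries. Metformin replicate 1 gave the highest value and metformin replicate 3 the lowest, with the controls between them. Ranks by mean FPKM were 389 for Oog1, 551 for Oog2 and 3508 for Oog4.

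**Figure D2:**
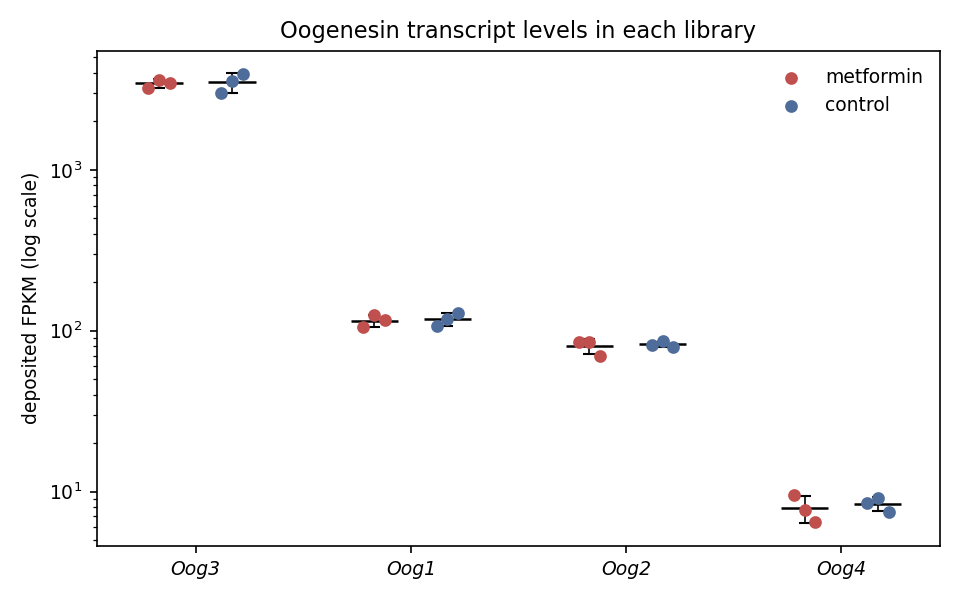
Deposited FPKM (log axis) of each oogenesin gene, 1 point a library, with the mean and SD of each group of 3 and metformin to the left of control. The genes sit on separate steps, from Oog3 between 2985 and 3961 down to Oog4 between 6.48 and 9.52, while the groups overlap at each gene.

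The order Oog3, Oog1, Oog2, Oog4 held in each of the 6 libraries. Oog3 exceeded Oog1 by a geometric mean of 29.7-fold, and single libraries gave 27.9 to 30.7-fold. Oog1 exceeded Oog2 by 1.44-fold, with a range of 1.24 to 1.67-fold. Oog2 exceeded Oog4 by 10.0-fold, with a range of 8.92 to 11.1-fold. Neighbours in this order did not overlap across the libraries. An exact two-sided sign-flip permutation test over the 6 libraries gave p = 0.03125 for each pair, which is the smallest value that 6 libraries allow and is unchanged by adjustment over the 3 pairs. The order, and so the pairs, came from the mean FPKM of the same libraries, so this p adds no support to the order. From end to end, Oog3 exceeded Oog4 by 339 to 538-fold in metformin libraries and by 351 to 528-fold in controls.

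The ratios between members were set side by side in both groups. The log2 ratio of Oog3 to Oog1 in FPKM was 4.90 ± 0.04 with metformin and 4.88 ± 0.07 in controls (SD, n = 3 each). That of Oog1 to Oog2 was 0.53 ± 0.22 with metformin and 0.52 ± 0.16 in controls, and that of Oog2 to Oog4 was 3.35 ± 0.17 with metformin and 3.30 ± 0.10 in controls. Exact two-sided permutation tests of metformin against control gave p = 0.9, 0.9 and 0.8 for the 3 ratios in that order, and 3 libraries against 3 cannot go below 0.1, so these tests could not have passed a threshold of 0.05 and do not show that the ratios were the same. After Benjamini-Hochberg adjustment over the 3 ratios each p was 0.9.

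How far apart the genes stand depends on the length used. The lengths implied by the deposited FPKM matched, within 2 bases, the sum of all distinct annotated exons for 11702 of 12017 genes (97.4%), so that exons of alternative transcripts that overlap each other are counted more than once. The longest transcript matched for 19.4%. The implied length was 1865 bases for Oog3, which has 1 annotated transcript of that length. For Oog1, with 3 transcripts, it was 4829 bases, against 2451 for the longest transcript, and FPKM is lowered accordingly. It was 3107 against 1917 bases for Oog2 and 2902 against 1981 for Oog4.

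Counts per kilobase of the longest transcript, scaled to all counted reads, kept the order in all 6 libraries and narrowed the first step. Oog1 then stood at 228 ± 19.8 with metformin and 232 ± 21.6 in controls. Oog2 stood at 130 ± 13.9 with metformin and 133 ± 5.12 in controls, and Oog4 at 11.6 ± 2.25 with metformin and 12.3 ± 1.22 in controls (SD, n = 3 in each group). The groups were again close at every gene. Oog3 exceeded Oog1 by 15.1-fold on this scale, Oog1 exceeded Oog2 by 1.75-fold, and Oog2 exceeded Oog4 by 11.1-fold. With the transcript that has the longest coding sequence the same 3 steps were 11.1, 2.38 and 10.2-fold.

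Metformin was set against control with edgeR's quasi-likelihood test on the counts of 12793 genes, with Benjamini-Hochberg adjustment over all of them. No oogenesin gene passed the adjusted threshold of 0.05, which 0.0391% of all genes tested passed (5 genes, 3 higher at 0.0235% and 2 lower at 0.0156%). DESeq2 and limma-voom also called none of the 4, and the smallest unadjusted p among them by edgeR was 0.650, for Oog4. The 2 groups overlapped for all 4 members, whereas they did not overlap for 5.63% of all genes tested. Values below are CPM, counts scaled to library size with edgeR's TMM factors, a scale for comparing libraries and not genes.

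Oog3 had 5672, 6795 and 7041 CPM in metformin libraries, against 5436, 6441 and 7719 CPM in controls. Its log2 fold change, metformin over control, was -0.01 (SE 0.167) with a 95% interval of -0.37 to 0.36. Its p was 0.969 before and 1.00 after Benjamini-Hochberg adjustment of edgeR's quasi-likelihood test. In fold terms the interval ran from 0.773 to 1.28.

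Oog1 had 479, 604 and 611 CPM in metformin libraries, against 505, 554 and 651 CPM in controls. Its log2 fold change was -0.01 (SE 0.150, 95% interval -0.34 to 0.32, edgeR adjusted p = 1.00). Oog2 had 249, 264 and 236 CPM in metformin libraries, against 247, 260 and 258 CPM in controls. It varied least, with a coefficient of variation of 4.09% over the 6 libraries and a log2 fold change of -0.03 (SE 0.123, 95% interval -0.30 to 0.24, edgeR adjusted p = 1.00). Oog4 had 26.1, 22.3 and 20.4 CPM in metformin libraries, against 24.1, 25.9 and 22.7 CPM in controls. Its log2 fold change was -0.08 (SE 0.173, 95% interval -0.46 to 0.30, edgeR adjusted p = 1.00).

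These intervals do not show that the levels were the same. They reached from 0.728-fold to 1.23-fold for Oog4, which had the widest on the log2 scale. Oog4 is the member with the fewest reads, at 199 to 274 counts with metformin and 220 to 229 in controls. The interval of Oog3, which had the most reads, was about as wide, from 0.773-fold to 1.28-fold. Counting error alone gave at most 7.09% for Oog4 and 0.440% for Oog3, compared with a spread over the 6 libraries of 9.38% and 13.2%. Poly(A) priming captures messages by their tails, and less message and a shorter tail cannot be told apart in these libraries.

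Summed as 1 feature, the 4 genes gave 7339 ± 800 CPM with metformin and 7382 ± 1223 CPM in controls (SD, n = 3 each). The log2 fold change of the sum was -0.01 (SE 0.165, 95% interval -0.37 to 0.35, edgeR adjusted p = 1.00). An exact two-sided permutation test on the summed CPM gave p = 1.0. Without Oog3, the other members summed to 837 ± 73.0 CPM with metformin and 849 ± 78.3 CPM in controls, with a log2 fold change of -0.02 (SE 0.136).

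**Figure D3:**
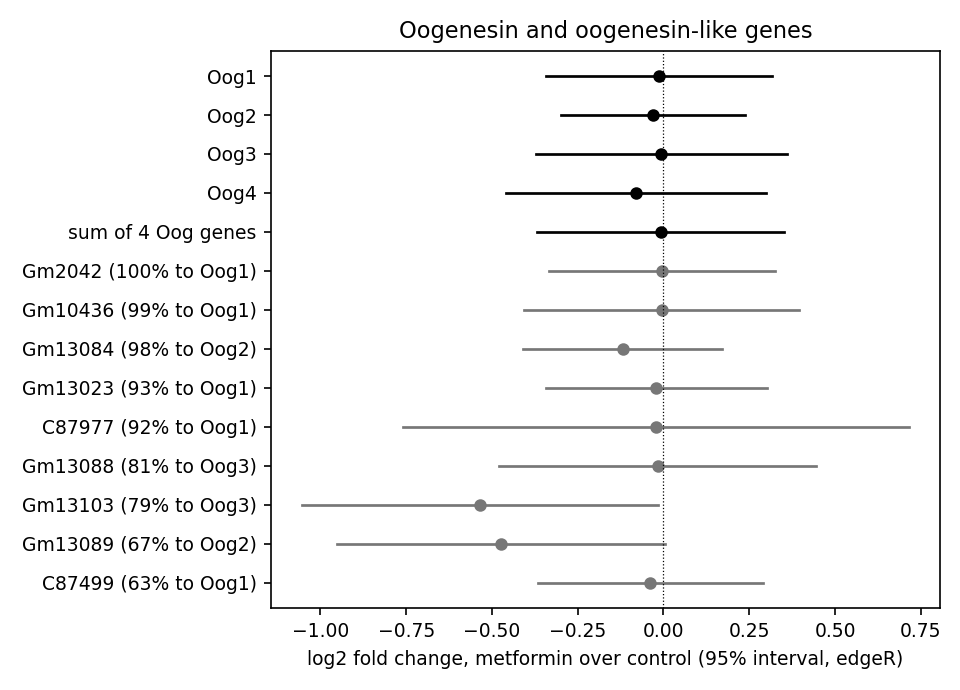
Log2 fold change, metformin over control, with 95% intervals from edgeR, for the 4 oogenesin genes and their sum (black) and for the 9 most similar genes (grey, with protein identity to the closest member). The black points lie between -0.08 and -0.01, and every black interval spans 0.

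The members did not move as a block across libraries. Over the 6 libraries, log2 CPM of Oog1 and Oog3 had a Pearson correlation of 0.963, and both were highest in control replicate 3. Oog4 ran the other way, with -0.728 against Oog1 and -0.615 against Oog3. Oog2 was only loosely tied to the others, at 0.207 to 0.377. These are descriptions over 6 points that share libraries and scaling, and they carry no p.

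Among 5962 genes with a mean of at least 10 CPM and a proper symbol, a few had a profile very like that of a member, by the same correlation over 6 libraries. Closest to Oog1 were Klc1, a kinesin light chain (0.993), Phlda2, an imprinted growth regulator (0.991), and Rnf115, a ubiquitin ligase (0.988). Closest to Oog3 were Eed, a subunit of Polycomb complex PRC2 (0.991), again Rnf115 (0.986), and Actr6, an actin-related chromatin protein (0.981). Oog2 was closest to Mapkap1, a subunit of mTORC2 (0.968), Kdm5a, a histone demethylase (0.967), and Prom1, a membrane glycoprotein (0.959). Oog4 was closest to the zinc finger gene Zfp182 (0.992), the corepressor subunit Sap130 (0.991) and Xpc, a DNA damage sensor (0.991). With so few libraries and so many genes, correlations of this size are found for each member.

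Oog1 shares most of its sequence letter for letter with other genes, and Oog4 almost none. Of the 1702 windows of 100 bases in its transcript with the longest coding sequence, 91.7% occur letter for letter in a transcript of another gene. For Oog2 the share was 22.4% of 1818 windows, for Oog3 10.8% of 1766, and for Oog4 0 of 1718. With windows of 50 bases the shares were 96.7, 45.2, 19.7 and 0.792%, and with windows of 150 bases 88.4, 14.1, 8.16 and 0%. No source used here says how a read with several possible origins was counted. The level of Oog1, and so its step above Oog2, is uncertain for that reason. The level of Oog2, and so its step above Oog4, is uncertain in the same way, with less exact sharing. Oog3 shared few windows of 100 bases and Oog4 none. Windows that differ by a single base were not counted as shared, so a low share does not show that a gene's reads are its own.

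**Figure D4:**
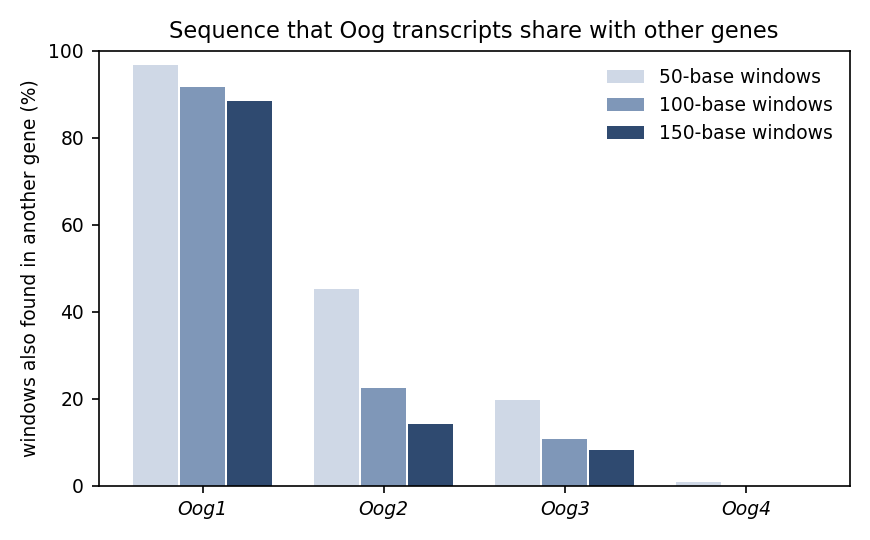
Share of windows of 50, 100 or 150 bases in each oogenesin transcript that also occur in a transcript of another gene. Oog1 stands near the top of the scale at every window length, and Oog4 at or below 0.792%.

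Nearly all of the sharing of Oog1 was with Gm2042, a second gene on chromosome 12 at chr12:87954080-87960683, which held 91.7% of its windows. Gm2042 averaged 1504 ± 193 CPM with metformin and 1510 ± 184 CPM in controls, with a log2 fold change of -0.01 (SE 0.151). Gm10436, also on chromosome 12, held 32.8% of the windows. It averaged 623 ± 144 CPM with metformin and 625 ± 109 CPM in controls. Gm13023 and C87977, both on chromosome 4, held 4.70% and 4.47%. Counted as 1 feature, Oog1 and these 4 genes gave 3815 ± 399 CPM with metformin and 3845 ± 591 CPM in controls, with a log2 fold change of -0.01 (SE 0.156).

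Oog2 shared windows mainly with Gm13084 on chromosome 4, which held 22.4% of them and averaged 355 ± 32.2 CPM with metformin and 386 ± 30.2 CPM in controls. The processed pseudogene Gm7201 on chromosome 13 held 0.330%. Summed with both, Oog2 gave 616 ± 44.2 CPM with metformin and 652 ± 30.9 CPM in controls, with a log2 fold change of -0.08 (SE 0.127). Oog3 shared its windows with Gm4350, a processed pseudogene on chromosome 14 that carried 625 ± 77.9 CPM with metformin and 631 ± 110 CPM in controls. The pair summed to 7127 ± 808 CPM with metformin and 7164 ± 1253 CPM in controls, a log2 fold change of -0.01 (SE 0.168). No summed feature passed the adjusted threshold.

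By protein sequence, the oogenesins had a small circle of close relatives and a wide one of distant relatives. Of the annotated mouse genes, 64 others encode a protein at least 30% identical to an Oog protein over at least 300 residues. For 9 of them identity was 60% or more, and the next gene below was Pramel6, at 46.9%. The limit of 60% was set after these identities and levels were known. The 9 were Gm2042 (99.8% to Oog1), Gm10436 (98.6% to Oog1), Gm13084 (97.9% to Oog2), Gm13023 (92.5% to Oog1), C87977 (92.3% to Oog1), Gm13088 (80.6% to Oog3), Gm13103 (78.9% to Oog3), Gm13089 (66.9% to Oog2) and C87499 (63.2% to Oog1). None of the 9 had Oog4 as its closest member.

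Counts were assigned to all of the close relatives, although reads of those that share long stretches with a member may not be their own. All 9 passed the filter on low counts, and 14 of the other 55 did, of which 23 had no read in any library. This difference was not tested. The next values are counts per kilobase of the longest transcript, scaled to all counted reads without TMM factors. The means of the 9 genes over the 6 libraries had a median of 206 and a range of 4.98 to 614. Gm2042, at 610 with metformin and 618 in controls, and C87499, at 587 with metformin and 609 in controls, exceeded Oog1 on this scale. So did Gm13023, at 361 with metformin and 371 in controls, and Gm10436, at 250.4 with metformin and 254 in controls, and none came near Oog3. On the deposited FPKM the order differs, since Gm10436 at 92.6 FPKM over the 6 libraries lay below Oog1 and Gm13084 at 138 FPKM lay above it. Of the 8 close relatives with a RefSeq promoter, 4 held TTCAGCTGAAA, namely Gm2042, Gm13084 (Pramel26 in RefSeq), C87499 (Pramel32) and Gm13089 (Pramel23). Together the 4 oogenesins and these 9 genes took 1.16 to 1.23% of counted reads in metformin libraries and 1.09 to 1.37% in control libraries.

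**Figure D5:**
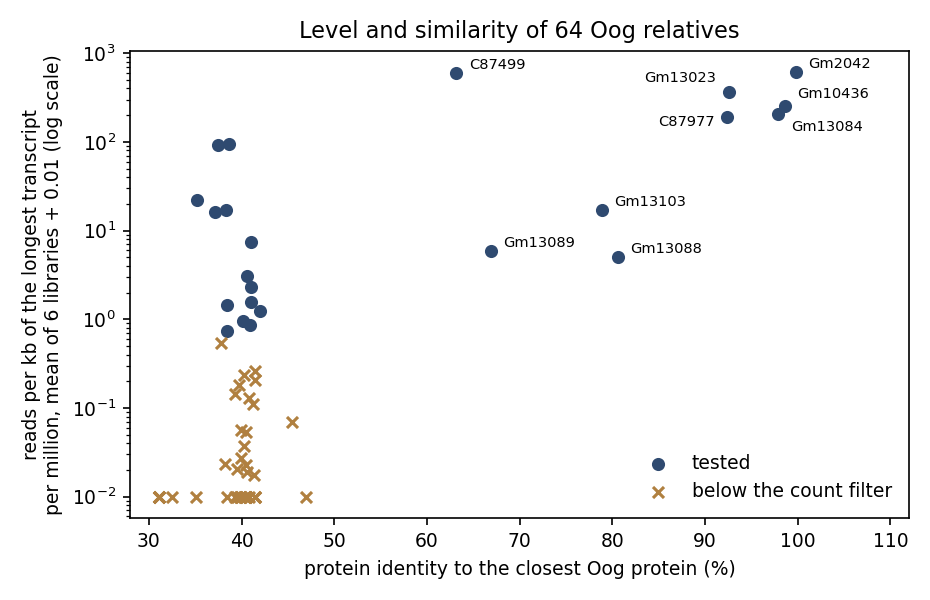
Identity to the closest oogenesin protein against level, in CPM per kilobase of the longest transcript (mean of 6 libraries plus 0.01, log axis), for 64 related genes. Filled points passed the filter on low counts and crosses did not. The 9 genes at 60% identity or more were all tested, and most genes near 40% lie low or at 0.

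None of the 9 changed under metformin by the adjusted test, and all 9 had a fitted log2 fold change below 0, as did 47.5% of all genes tested. For 7 of them it lay between -0.12 and -0.01. Gm13103 had 343, 263 and 177 counts in metformin libraries, against 447, 273 and 321 counts in controls. That is 25.5 ± 7.26 CPM with metformin and 37.0 ± 8.72 CPM in controls, with overlap and a fitted change of -0.54 on the log2 scale (SE 0.237, unadjusted p = 0.044, edgeR adjusted p = 1.00). Gm13089 had 108, 95 and 67 counts with metformin, against 116, 120 and 107 in controls. It averaged 8.82 ± 1.76 CPM with metformin and 12.3 ± 1.26 CPM in controls without overlap, at -0.47 on the log2 scale (SE 0.218, unadjusted p = 0.051, edgeR adjusted p = 1.00). Of the 9, 1 was without overlap, beside 5.63% of all genes tested, and 1 had an unadjusted p under 0.05, beside 1.5%. Gm13089 was singled out after its values were seen.

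A list of the PRAME family by gene symbol, without the oogenesins, held 31 genes of the table, of which 14 could be tested. Of the 9 close relatives it leaves out Gm2042, Gm10436, Gm13023 and Gm13089. It includes Pramef12os, an antisense RNA, and Gm21936, for which no match to an Oog protein was found. AA792892, which was tested, was not among the 64 relatives by protein either. Fitted changes were above 0 for 5 and below 0 for 9, with a median log2 fold change of -0.03, beside 0.01 over all genes tested. None passed the adjusted test by edgeR, DESeq2 or limma-voom. An unadjusted edgeR p under 0.05 was found for 1 gene of the 14, Gm13103, beside 1.5% of all genes tested. The 5 of this list with the highest mean CPM, a choice that ignores length, were C87499, C87977, Gm13084, C87414 and Pramef12. Outside the list, Gm2042 averaged more CPM than any of these, and Gm13023 and Gm10436 more than all but C87499. Per kilobase, Gm13084 at 206 stood above C87977 at 190. Pramef12, which in mice is needed for spermatogenesis, averaged 238 ± 15.1 CPM with metformin and 213 ± 6.73 CPM in controls without overlap, at 0.16 on the log2 scale (SE 0.124, unadjusted p = 0.219, edgeR adjusted p = 1.00). Of the 14, 1 was without overlap, beside 5.63% of all genes tested. Pramef6 averaged 2.98 ± 1.00 CPM with metformin and 1.81 ± 0.218 CPM in controls (SD, n = 3 each), at a log2 fold change of 0.71 with overlap. C87414 averaged 276 ± 76.3 CPM with metformin and 263 ± 79.6 CPM in controls.

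Gene lists built around reported partners of the family were looked at in the same way. Of 20 genes of Ras and Ral signalling, 17 could be tested, 12 with a fitted change above 0 and 5 below, with a median log2 fold change of 0.06. None passed the adjusted test by any of these tools, and 0 had an unadjusted p under 0.05. The smallest unadjusted p belonged to Rgl2, a Ral exchange factor, at 2.11 ± 0.948 CPM with metformin and 1.17 ± 0.351 CPM in controls, and next to Hras, at 4.49 ± 1.69 CPM with metformin and 3.08 ± 0.958 CPM in controls. The CUL2 list held 13 genes, namely parts of the ligase, its substrate receptors and Uhrf1, a reported target of Pramel7 and not a ligase part. Of the 13, 12 could be tested, 7 above 0 and 5 below, with a median of 0.02, and none passed by any of these tools. Klhdc10, a substrate receptor of that ligase, averaged 8.60 ± 1.34 CPM with metformin and 5.09 ± 2.16 CPM in controls, at 0.76 on the log2 scale (SE 0.296, unadjusted p = 0.026, edgeR adjusted p = 1.00). Elob, an adaptor of the ligase, averaged 5.54 ± 1.27 CPM with metformin and 7.35 ± 2.21 CPM in controls. At an unadjusted p under 0.05 there was 1 gene of the 12, beside 1.5% of all genes tested.

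Of 19 other oocyte genes, 18 could be tested, 9 on each side of 0, with a median log2 fold change of -0.03. None passed the adjusted test by any of these tools, and 0 had an unadjusted p under 0.05. Dppa3, which protects DNA methylation in the zygote, averaged 8669 ± 2354 CPM with metformin and 7220 ± 827 CPM in controls. Zar1, a maternal RNA-binding protein, averaged 817 ± 24.6 CPM with metformin and 728 ± 25.5 CPM in controls without overlap, at 0.17 on the log2 scale (SE 0.122, unadjusted p = 0.200, edgeR adjusted p = 1.00). Of the 18, 1 was without overlap, beside 5.63% of all genes tested.

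The libraries were checked against the labelled cell type. All 6 oocyte markers passed the filter on low counts and summed to 13524 to 14812 CPM with metformin and 13570 to 14974 CPM in controls. Of 11 markers of cumulus and granulosa cells 2 passed the filter, and the 11 summed to 55.6 to 67.4 CPM with metformin and 59.2 to 61.7 CPM in controls, with Amh and Foxl2 at 0 throughout. Most of that sum was Cyp19a1, the aromatase of granulosa cells, with 389, 489 and 395 counts in metformin libraries and 383, 318 and 380 counts in controls. Serpine2, a protease inhibitor that cumulus cells also make, was not among the 11 and was singled out after its values were seen. It had 11812 to 15728 counts with metformin and 11707 to 14411 in controls, and its source was not tested. Of 8 markers of theca, stroma and endothelium 3 passed, and the 8 summed to 31.1 to 42.9 CPM with metformin and 34.5 to 39.8 CPM in controls, with Cyp17a1 at 0. Of 8 blood and immune markers 1 passed, and the 8 summed to 1.28 to 2.28 CPM with metformin and 1.70 to 33.3 CPM in controls, with Adgre1 at 0, and the highest sum was in control replicate 1.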

How the data were processed

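RNA libraries from 6 mouse oocyte samples were made with the SMART-Seq HT kit, per the labels' protocols, which primes on poly(A) tails and keeps neither strand nor molecular identifiers. CASAVA 1.8, TopHat2 2.0.6 and the mm10 build are named per the submitters' processing notes. No source used here names the read counter, the annotation release or the handling of multiply matching reads. Per the file headers, the authors deposited raw counts per gene and FPKM values, and both were used as deposited. Symbols in GENCODE M21 matched 55141 of 55487 identifiers, and the 346 others held at most 0.0665% of reads.

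Counts were tested with edgeR 4.0.16 (R 4.3.3), using TMM scaling, a filterByExpr minimum of 10 counts, a robust quasi-likelihood fit on group alone, and Benjamini-Hochberg adjustment at 0.05. DESeq2 1.42.0, limma-voom (limma 3.58.1), other scalings and filters, a replicate block and leaving out each library were alternatives. Log2 CPM for correlations used a prior count of 2. The fit was tested on simulated data. Proteins translated from GENCODE coding sequences were compared with blastp 2.17.0. Promoters are RefSeq, GRCm38.p6.

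The members and gene lists were chosen with earlier results of these data known, and the relatives by protein identity and the summed features were added after seeing the data. The shared promoter runs were taken from the Oog promoters themselves, which are also among the promoters in which the runs were counted. Named genes are all members and, of the PRAME list by symbol, the 5 most abundant tested genes by mean CPM. The 2 genes of each list with the smallest unadjusted p and the 3 genes most correlated with each member are also named. Summed features, protein relatives and, after their values were seen, Gdf9, Zp3, Mos, Btg4, Nlrp5, Cyp19a1 and Serpine2 are named besides.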

Additional observations from a re-analysis of the deposited data

How the results depend on the processing

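No oogenesin gene passed the adjusted threshold under any alternative, with a smallest unadjusted p of 0.336, for Oog4. The log2 fold changes of Oog1, Oog2, Oog3 and the sum lie so near 0 that their signs are not stable. That of Oog4 stayed below 0 under all 14 alternatives. When each library was left out in turn the log2 fold changes ran from -0.0962 to 0.0933 for Oog1, -0.0732 to 0.0079 for Oog2 and -0.13 to 0.13 for Oog3. For Oog4 they ran from -0.18 to -0.0032, and for the sum from -0.12 to 0.12. The sign turned without metformin replicate 1, at 0.09 for Oog1, 0.08 for Oog3 and 0.08 for the sum. It also turned without control replicate 3, at 0.0933 for Oog1, 0.13 for Oog3 and 0.12 for the sum. Without metformin replicate 3 Oog2 gave 0.0079, and limma-voom gave 0.0018 for Oog3. The cause was not tested.

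The replicate block gave 0.0018 for Oog3, and 7 genes of all tested passed, against 5 without it. Deviations of same-numbered libraries correlated at 0.168, 0.0246 and 0.231 over 6668 genes, and those of differently numbered ones at -0.204 to 0.0515. The values for numbers 1 and 3 were the highest of all. Whether the numbers pair the samples was not tested, the labels name no pairing, and the main fit used group alone. DESeq2 called 9 genes, and leaving out a library gave 5 to 12. In each gene list the number called stayed at 0 under every alternative run.

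The log2 FPKM ratios without a library ran from 4.88 to 4.91 for Oog3 to Oog1, 0.48 to 0.57 for Oog1 to Oog2 and 3.30 to 3.36 for Oog2 to Oog4. With 5 libraries the smallest exact p is 0.0625. Relatives at 40% protein identity, from translated coding sequences, gave 16 tested genes and a median of -0.05, in place of a planned set that needed a protein table not used here. At this depth the median SE was 0.181 on the log2 scale among 6668 genes of at least 10 CPM.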
